A study of Macaca fascicularis with 16 samples.

Results

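Solute carriers are membrane proteins that move sugars, amino acids, ions, metals, vitamins, nucleotides and fatty acids across the plasma membrane and across the membranes of organelles. The genes described here are the solute carriers measurable in the aorta of the cynomolgus monkey (Macaca fascicularis). A row of the count table belonged to the set when its gene symbol had the form SLC, a number, a letter and a number, and when it reached at least 5 CPM, the usual unit of the raw count scaled by the library total, in at least 4 of the 16 libraries. A further gene of that form was left out. Of 356 solute carrier rows among 32846 rows in all, 197 met the rule. All 197 were among the 15926 genes with enough counts to be tested; another 45 solute carrier rows were tested but fell short of the rule, and 114 were too scarce to be tested. The CPM values that chose the members are described and not tested. The comparisons below are between regions, whose labels the rule did not use, but a member could pass through libraries of some regions only. Of the members called below, SLC22A2, SLC2A5, SLC45A3 and SLC37A1 had no infrarenal library at 5 CPM or above. Their calls as lower in the infrarenal region are therefore not fully independent of the rule.

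The study sequenced bulk RNA from the aorta of normal young monkeys at 4 places: the ascending aorta, the descending aorta, the suprarenal aorta above the kidneys and the infrarenal aorta below them, with 4 libraries for each. All libraries carry the treatment label Baseline, so region was the only labelled difference between groups, and the question was how the regions differ. The labels give each library a number from 1 to 4 within its region and do not say that libraries came from separate animals, so the p-values measure only the spread between these libraries.

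Carriers are grouped into families by sequence, and most families serve a class of substrate. Those of the plasma membrane work as uniporters, as cotransporters driven by the sodium gradient, or as exchangers. The SLC25 family sits in the inner mitochondrial membrane and the SLC35 family brings activated sugars into the Golgi apparatus and endoplasmic reticulum. In the arterial wall, glucose transporters feed smooth muscle glycolysis, sodium-calcium exchange takes part in the control of contraction, and transporters for organic cations and monoamines clear amines from the extracellular space.

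Most members were present throughout the aorta. At the level of the rule, 140 of the 197 reached 5 CPM in all 16 libraries, and 0 reached it in libraries of 1 region only. The members just inside the limit, with 4 libraries, were SLC25A45 (raw CPM 2.42 to 5.58), SLC45A3 (0.567 to 5.94) and SLC27A6 (0 to 81.3, with 1 library in each region). SLC45A3 met the limit with 1 ascending, 1 descending, 2 suprarenal and 0 infrarenal libraries. Just outside it, with 3 libraries, were SLC14A1 (0.433 to 13) and SLC37A2 (1.76 to 7.30). The members took 0.827% to 0.876% of the counts in the ascending libraries, 0.801% to 0.843% in the descending, 0.762% to 0.841% in the suprarenal and 0.665% to 0.823% in the infrarenal libraries.

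Library totals ran from 14402824 to 21407514 counts, which limits the precision of the scarcest members to a few counts per library. Infrarenal library 1 stood apart with a scaling factor (TMM, the trimmed mean of M-values of edgeR) of 0.736, against 0.977 to 1.08 in the other 15, and with the highest summed CPM of 10 smooth muscle markers (57200, against 13600 to 36520). Ascending library 4 and suprarenal library 3 had the lowest smooth muscle sums (17820 and 13600) and endothelial sums of 2163 and 3656 over 11 markers, where the other libraries of their regions had 540 to 788 and 608 to 1052. The endothelial sum was 804 to 1113 in the descending and 1113 to 3026 in the infrarenal libraries, and 1 of the 11 markers was called higher in the infrarenal region. The sum of 7 matched mesothelial markers was 78.9 to 211 in the ascending, 18.7 to 68.3 in the descending, 16.2 to 27.6 in the suprarenal and 8.30 to 17.6 in the infrarenal libraries. The sum of 9 fibroblast markers was 4097 to 6328 in the ascending and 6504 to 11770 in the infrarenal libraries (2 called higher between them), and that of 10 Schwann cell and nerve markers was 414 to 658 and 283 to 398 (1 called lower). No listed marker found in the table was at 0 in all 16 libraries. The part of these markers in the differences below was not tested except where a value is given. In bulk tissue, fewer cells of a type and less RNA per cell cannot be told apart.

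Below, CPM values are scaled with the TMM factors, differences are log2 values with a standard error (SE), and a member is called when its Benjamini-Hochberg adjusted p in the quasi-likelihood test of edgeR, adjusted over all 15926 genes, is under 0.05. The genes tested include ones too scarce for the member rule. Here and below, the shares of members and of all genes thus come from sets unlike in level. The test of any difference among the 4 regions called 6 of the 197 members (3.05%), beside 2.02% of all genes tested. These were SLC6A8, SLC2A5, SLC1A1, SLC45A3, SLC5A3 and SLC22A2. At an unadjusted p under 0.05 there were 25 members (12.7%), beside 9.61% of all genes. Across this test, the contrast of the infrarenal region with the mean of the other 3, and the 6 pairs of regions, 15 members were called at least once and 182 never. The share of all genes called at least once was not counted, so whether the 15 exceed it is not known. Leaving out infrarenal 1, ascending 4 and suprarenal 3 together gave 17 members in the test of any difference, beside 7.08% of all genes. Leaving out 1 library gave between 2 (without descending 4, infrarenal 2 or infrarenal 4) and 9 (without suprarenal 3), with 3 without ascending 2, ascending 3, descending 2, suprarenal 1 or suprarenal 4. The fits named here called 1.31% (without infrarenal 2) to 2.51% (without suprarenal 3) of all genes.

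**Figure D1:**
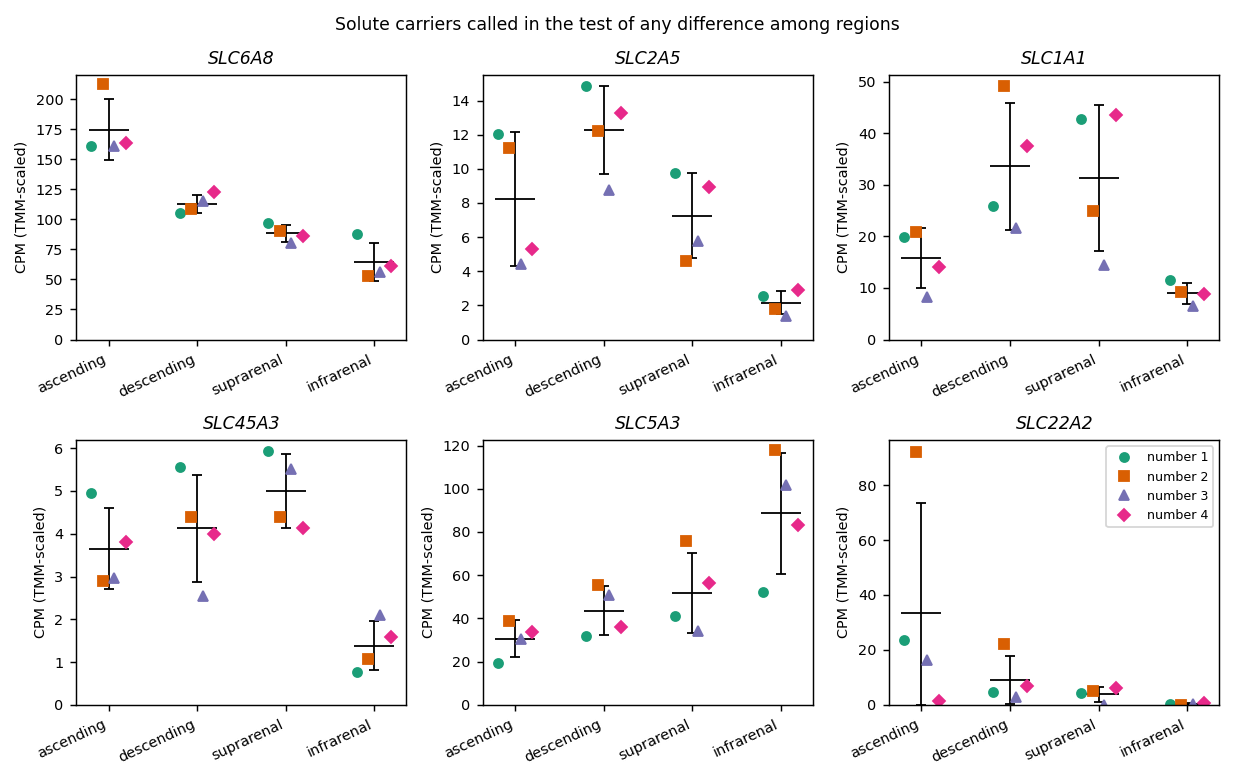
CPM (TMM-scaled, linear axis from 0) of the 6 members called in the test of any difference, with 1 point per library, the marker giving the library's number, the wide tick the mean and the bar the SD over 4 libraries (stopped at 0). SLC6A8 falls from 161 to 212 in the ascending to 52.9 to 87.9 in the infrarenal libraries, while SLC5A3 is highest in the infrarenal region with a mean of 88.7.

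Most calls between pairs of regions involved the infrarenal aorta (13 members versus ascending, 5 versus descending and 1 versus suprarenal). Suprarenal versus ascending called 1 member, and the remaining pairs called 0. Only the infrarenal region was also compared with the mean of the other 3. Against the mean of the other 3 regions, 11 members (5.58%) were called, beside 2.98% of all genes. SLC5A3, SLC39A8 and SLC44A2 were higher (3 members, where 1.37% of all genes were called higher). The lower members were SLC22A2, SLC2A5, SLC45A3, SLC1A1, SLC7A8, SLC4A3, SLC13A4 and SLC6A8 (8 members, where 1.61% of all genes were called lower). Of these, SLC22A2, SLC2A5 and SLC45A3 met the member rule through the other regions alone. Over all members, 96 had a positive and 101 a negative difference, with a median of 0.00 (log2), where the median of all genes was 0.03, and the median size of a difference was 0.20 for members and 0.22 for all genes. Scaling by library totals alone moved the median of all genes to -0.05 and gave 2 members higher and 11 lower, beside 2.91% of all genes called. Without infrarenal 1, ascending 4 and suprarenal 3, 19 members were called, 3 higher and 16 lower, beside 10.1% of all genes in that fit. The count fell to 4 without infrarenal 2, to 6 without infrarenal 4 and to 7 without infrarenal 3, beside 1.65%, 2.24% and 2.35% of all genes. SLC2A5, SLC45A3 and SLC6A8 were called in each of these fits.

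**Figure D2:**
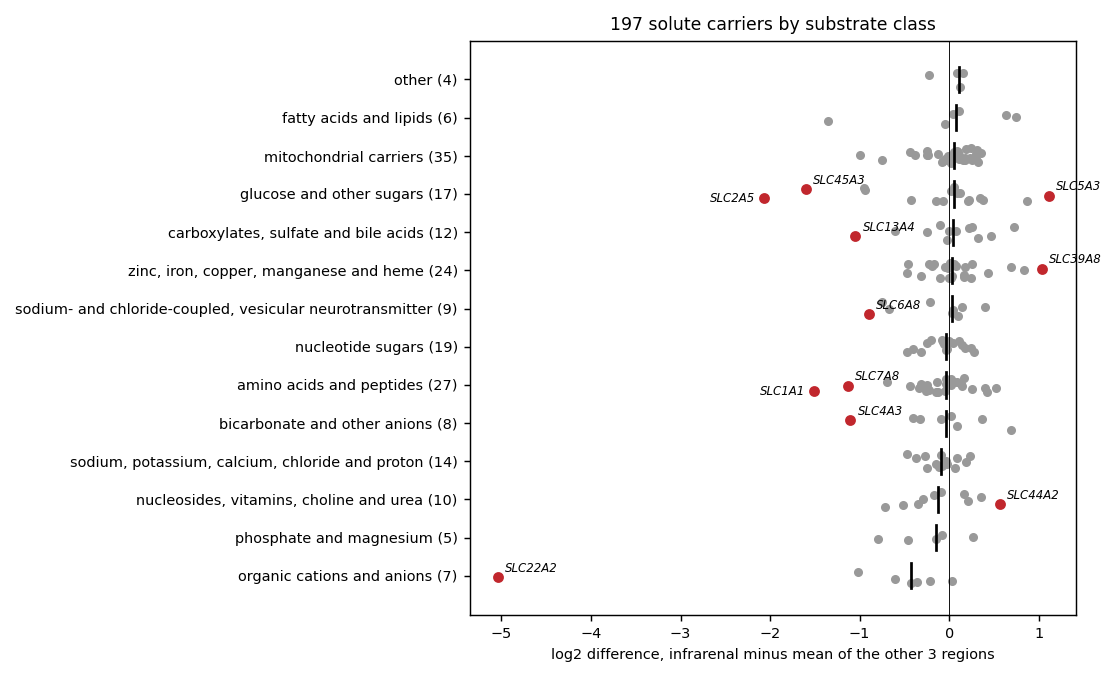
Log2 difference of the infrarenal region from the mean of the other 3 (horizontal axis) for the 197 members, in rows by substrate class with the number of members in parentheses; red points are called members, grey points the rest, the black bar is the median of the class and the vertical scatter within a row has no meaning. The medians of the classes lie between -0.43 and 0.11, and the called members differ by 0.57 or more in size, as do some members that were not called.

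Among the sodium- and chloride-coupled carriers, SLC6A8, which imports creatine, had the smallest p of all members in the test of any difference. Its CPM was 161, 212, 161 and 164 in the ascending libraries, 106, 108, 115 and 123 in the descending, 96.8, 90.5, 80.1 and 86.1 in the suprarenal, and 87.9, 52.9, 56.2 and 61.6 in the infrarenal libraries. The ascending, descending and suprarenal libraries did not overlap, and only infrarenal 1 reached into the suprarenal range. By library totals, infrarenal 1 was at 64.6 CPM, below every suprarenal library. The adjusted p of any difference was 0.000796. SLC6A8 was 1.44 (log2, SE 0.16, adjusted p = 0.000179) lower in the infrarenal than in the ascending region, and it fell by 0.81 (SE 0.16, adjusted p = 0.016) from the descending to the infrarenal and by 0.98 (SE 0.16, adjusted p = 0.0141) from the ascending to the suprarenal region. The steps between neighbouring regions did not pass the test: descending minus ascending was -0.63 (adjusted p = 0.229), suprarenal minus descending -0.35 (adjusted p = 1) and infrarenal minus suprarenal -0.45 (adjusted p = 0.57). Without infrarenal 1, ascending 4 and suprarenal 3 together, descending minus ascending (-0.66, adjusted p = 0.0237) and infrarenal minus suprarenal (-0.69, adjusted p = 0.017) were called. In that fit suprarenal minus descending was not called. The calls for any difference, for infrarenal against the rest and for infrarenal versus ascending held in every alternative run. The call for infrarenal versus descending ended without descending 3 or 4 or infrarenal 2, 3 or 4 (adjusted p 0.0501 to 0.0664) and with only the 8 libraries compared (0.0922), and that for suprarenal versus ascending ended without ascending 2 (0.0653) or suprarenal 2 (0.0519).

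The serotonin transporter SLC6A4 was not called between regions (adjusted p = 0.306). It was at 69.7 CPM in ascending 4, beside 11 to 13.6 in the other ascending libraries, and at 3.36 to 9.95, 4.30 to 17.1 and 4.13 to 14.1 in the descending, suprarenal and infrarenal libraries. In each region the library with the highest SLC6A4 (ascending 4, descending 3 with 9.95, suprarenal 3 with 17.1 and infrarenal 3 with 14.1) was also the library with the highest endothelial marker sum (2163, 1113, 3656 and 3026); the part of endothelial cells in this was not tested. The taurine transporter SLC6A6 had region means falling from 30.8 ± 4.02 (SD, n = 4) in the ascending to 13.8 ± 9.14 in the infrarenal libraries, where infrarenal 1 was at 0.925 CPM and the other 3 at 15.2 to 22.5, and it was not called (adjusted p = 0.817).

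Of the 17 sugar carriers, 3 were called for any difference, and in the infrarenal region against the rest 1 was higher and 2 were lower, with a class median of 0.05. SLC2A5 is GLUT5, the fructose transporter. It was at 12, 11.2, 4.42 and 5.31 CPM in the ascending libraries, 14.9, 12.2, 8.73 and 13.3 in the descending, 9.77, 4.59, 5.77 and 8.92 in the suprarenal, and 2.55, 1.81, 1.38 and 2.89 in the infrarenal libraries. All 4 infrarenal libraries lay below the other 12. It was lower in the infrarenal region than in the mean of the rest by a log2 difference of -2.06 (SE 0.34, adjusted p = 0.00288), with -2.51 (SE 0.38, adjusted p = 0.00352) against the descending and -1.93 (SE 0.38, adjusted p = 0.00856) against the ascending region. The difference from the suprarenal region, -1.75 (SE 0.38, adjusted p = 0.0761), did not pass. The calls for any difference (adjusted p = 0.0103) and for the infrarenal region against the rest held in all 25 alternatives; that against the ascending region ended with only the 8 libraries compared (adjusted p = 0.0668).

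SLC45A3, prostein, is a carrier related to sucrose transporters. Its CPM was 4.95, 2.90, 2.97 and 3.80 in the ascending libraries, 5.56, 4.40, 2.55 and 3.99 in the descending, 5.94, 4.40, 5.52 and 4.13 in the suprarenal, and 0.771, 1.08, 2.10 and 1.58 in the infrarenal libraries. Here too the infrarenal libraries lay below all others. The levels of SLC45A3 were near or under the lower limit of the member rule, which it met through 0 infrarenal and 2 suprarenal libraries. It is thus a member only through regions where it was higher. The difference from the rest was -1.60 (SE 0.30, adjusted p = 0.00696) and held in all 25 alternatives. SLC45A3 was the only member called between the infrarenal and suprarenal regions (-1.84, SE 0.34, adjusted p = 0.0467); it was also lower than in the descending (-1.57, adjusted p = 0.0281) and ascending (-1.39, adjusted p = 0.0319) regions. These 3 calls between pairs were less stable: the first ended on leaving out any library except ascending 4, descending 3, suprarenal 2 or infrarenal 3 (adjusted p 0.0524 to 0.167), the second without descending 1, 2 or 4 or infrarenal 1, 2 or 4 (0.0511 to 0.0993) and the third without ascending 1 or 4 or infrarenal 2 or 4 (0.0539 to 0.114). The call for any difference (adjusted p = 0.0348) ended in 13 of 25 alternatives. Versus descending the call also ended with only the 8 libraries compared. Versus ascending it also ended with library totals alone, no filter beyond 1 count or only the 8 libraries compared. The call against the suprarenal region also ended with library totals alone, limma voom or only the 8 libraries compared. In that pair DESeq2 called SLC1A1 and SLC2A5 as well (beside 1.05% of all genes). Without infrarenal 1, ascending 4 and suprarenal 3 together, SLC1A1, SLC2A1, SLC2A5 and SLC6A8 were called there beside SLC45A3 (1.51% of all genes).

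SLC5A3 imports myo-inositol with sodium and responds to osmotic stress. It was at 19.2, 39, 30.6 and 33.9 CPM in the ascending libraries, 32, 55.3, 51 and 36 in the descending, 41, 76, 34.4 and 56.3 in the suprarenal, and 52.3, 118, 102 and 83.1 in the infrarenal libraries. The infrarenal libraries lay above every ascending library and overlapped the descending and suprarenal ones through infrarenal 1. SLC5A3 was higher in the infrarenal region than in the rest by 1.11 (SE 0.23, adjusted p = 0.0136) and than in the ascending region by 1.53 (SE 0.30, adjusted p = 0.00907). The first call ended without infrarenal 2 (adjusted p = 0.0863), and the call for any difference (adjusted p = 0.0439) ended in 15 of 25 alternatives, among them on leaving out any library except suprarenal 2, suprarenal 3 or infrarenal 1 (0.0503 to 0.179). The span of SLC5A3 in the RefSeq annotation overlaps those of MRPS6 and KCNE2, which were also higher in the infrarenal region (1.15, adjusted p = 0.0229, and 2.61, adjusted p = 0.00285). Whether reads were shared among the 3 genes cannot be told from the counts.

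The glucose transporter SLC2A1 (GLUT1) and the sugar-phosphate carrier SLC37A1 were called only between the infrarenal and ascending regions. SLC2A1 had 102 to 151 CPM in the ascending, 78.5 to 139 in the descending, 40.9 to 125 in the suprarenal and 37.2 to 76.2 in the infrarenal libraries, with a difference of -1.16 (SE 0.30, adjusted p = 0.0461). Suprarenal 3 was its lowest library outside the infrarenal region. SLC37A1 had 5.89 to 8.45 CPM in the ascending and 2.17 to 4.55 in the infrarenal libraries, a difference of -1.16 (SE 0.29, adjusted p = 0.0396). Each of these 2 calls ended in 11 of the 16 fits that leave out 1 library (adjusted p up to 0.137 and 0.136). SLC2A1 kept its call without ascending 4, descending 1, suprarenal 2, suprarenal 3 or infrarenal 1. SLC37A1 kept its call without descending 1, descending 4, suprarenal 3, suprarenal 4 or infrarenal 1. Both calls also ended with no filter beyond 1 count and with only the 8 libraries compared. That of SLC2A1 also ended with RLE scaling in place of TMM and with limma voom. Without infrarenal 1, ascending 4 and suprarenal 3 together, 10.1% of all genes were called against the rest. Both members were then called lower than the rest (SLC2A1 -1.23, adjusted p = 0.00235, and SLC37A1 -1.20, adjusted p = 0.00796). They were also called versus descending, and SLC2A1 versus suprarenal (-1.09, adjusted p = 0.0385).

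The 7 organic cation and anion carriers included SLC22A2, OCT2, a transporter of organic cations such as monoamines and drugs that is best known from the kidney. Its counts came largely from the thoracic libraries: 23.8, 91.9, 16.2 and 1.33 CPM in the ascending, 4.52, 22, 2.73 and 6.93 in the descending, 4.14, 5.17, 0 and 6.08 in the suprarenal, and 0.231, 0.0602, 0.131 and 0.792 in the infrarenal libraries. The 4 regions held 2158, 610, 278 and 20 counts in all, and the 0 counts of suprarenal 3 allow a level of up to 0.205 CPM. The infrarenal libraries lay below every ascending and descending library, while ascending 4, far below the other ascending libraries, was also below all 4 descending libraries. SLC22A2 was lower in the infrarenal than in the ascending region by -6.70 (log2, SE 1.40, adjusted p = 0.0128); this call ended without infrarenal 2 (adjusted p = 0.0516) and with limma voom (0.38). Against the mean of the other 3 regions the difference was -5.04 (SE 1.26, adjusted p = 0.0419), against the descending -4.82 (SE 1.33, adjusted p = 0.0943) and against the suprarenal region -3.59 (SE 1.30, adjusted p = 0.621). The call against the rest ended on leaving out any library except ascending 4, descending 3 or suprarenal 3 (adjusted p 0.0514 to 0.134), and that for any difference (adjusted p = 0.0478) on leaving out any except ascending 4, descending 2 or suprarenal 3 (0.0612 to 0.182). Both calls also ended with limma voom. Without infrarenal 1, ascending 4 and suprarenal 3 together, the adjusted p against the rest was 0.00595. The mesothelial marker sum given above was also lower in the infrarenal than in the ascending libraries. Ascending 4 had the highest mesothelial sum (211) and the lowest SLC22A2 of its region. The part of mesothelial cells in the difference was not tested.

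SLC47A1 (MATE1), which exports organic cations in exchange for protons, and SLC22A17, a receptor for lipocalin 2 in the same family as SLC22A2, were both lower in the infrarenal than in the ascending region. SLC47A1 had 17.3 to 29.1 CPM in the ascending, 8.37 to 21.3 in the descending, 8.66 to 19.3 in the suprarenal and 6.39 to 13 in the infrarenal libraries, a difference of -1.51 (SE 0.34, adjusted p = 0.0179) that lost its call without ascending 2, ascending 3, infrarenal 2 or infrarenal 4 (0.0528 to 0.0654). SLC22A17 had 370 to 414 CPM in the ascending libraries and 342, 188, 210 and 223 in the infrarenal libraries, a difference of -0.69 (SE 0.17, adjusted p = 0.0347). Infrarenal 1 was the highest of its region, and without it the difference from the rest, not called with all libraries (-0.42, adjusted p = 0.155), was -0.64 (adjusted p = 0.00352). The call for SLC22A17 ended in 9 of the 16 fits that leave out 1 library (0.0524 to 0.125). It held without ascending 4, descending 1 or 3, suprarenal 2, 3 or 4, or infrarenal 1. It also ended with RLE scaling in place of TMM, with no filter beyond 1 count and with only the 8 libraries compared. In this class 6 of 7 members had a negative infrarenal difference, with a median of -0.43.

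Of the 27 amino acid and peptide carriers, 2 were called lower in the infrarenal region and 0 higher, with a median of -0.03. SLC1A1 (EAAT3), a sodium-driven importer of glutamate and aspartate that also takes up cysteine, was highest in the middle of the aorta. Its CPM was 19.9, 20.9, 8.29 and 14.1 in the ascending libraries, 25.8, 49.3, 21.7 and 37.5 in the descending, 42.7, 25, 14.5 and 43.5 in the suprarenal, and 11.5, 9.15, 6.42 and 8.83 in the infrarenal libraries. All infrarenal libraries lay below the descending and suprarenal ones and overlapped the ascending ones. SLC1A1 was lower in the infrarenal region than in the rest (-1.51, SE 0.33, adjusted p = 0.0188) and than in the descending region (-1.90, SE 0.38, adjusted p = 0.016); against the suprarenal region the difference was -1.81 (SE 0.38, adjusted p = 0.0618), and descending minus ascending was 1.09 (SE 0.37, adjusted p = 0.498). The call against the rest ended without infrarenal 2, 3 or 4 (0.0591 to 0.0698). That against the descending region ended without descending 2, infrarenal 2 or infrarenal 3 (0.0515 to 0.0657). That for any difference (adjusted p = 0.027) ended without descending 2 or 4 or infrarenal 2, 3 or 4 (0.0541 to 0.0886). The calls against the rest and for any difference also ended with limma voom.

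SLC7A8 (LAT2), which exchanges neutral amino acids together with the heavy chain SLC3A2, had 28.1, 15.8, 16 and 25.2 CPM in the ascending libraries, 21.6, 19.8, 12.6 and 21.3 in the descending, 23.8, 11.6, 14.4 and 19.8 in the suprarenal, and 5.79, 6.26, 14.4 and 8.37 in the infrarenal libraries. Infrarenal 3 lay among the other regions and the remaining infrarenal libraries below them. The difference from the rest was -1.13 (SE 0.28, adjusted p = 0.0375), and from the ascending region -1.29 (SE 0.32, adjusted p = 0.036). The first call ended in 9 of the 16 fits that leave out 1 library (0.055 to 0.142). It held without ascending 2, 3 or 4, descending 3, suprarenal 2 or 3, or infrarenal 3. It also ended with library totals alone and without infrarenal 1, ascending 4 and suprarenal 3 together (0.0618). The second call ended without ascending 1 or 4, descending 2, or infrarenal 1, 2 or 4 (0.0515 to 0.125). It also ended with library totals alone, with only the 8 libraries compared and without the 3 libraries named.

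SLC7A10 (Asc-1), a carrier of small neutral amino acids that is known as a surface marker of white adipocytes, was not called (adjusted p = 0.387). It was at 39.1 CPM in descending 1, at 1.27 to 8.19 in the other descending libraries, at 0.182 to 1.57 in the ascending, 0.239 to 7.49 in the suprarenal and 0.421 to 10.9 in the infrarenal libraries. The libraries with the highest SLC7A10 in the descending, suprarenal and infrarenal regions (descending 1, suprarenal 3 and infrarenal 3) also had the highest summed CPM of 10 white adipocyte markers there (3576, 2736 and 3185); the part of fat in this was not tested. SLC38A2, a sodium-coupled importer of glutamine and alanine, had 125 to 196 CPM in 15 libraries and 78.2 in infrarenal 1, with no call (adjusted p = 0.934).

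**Figure D3:**
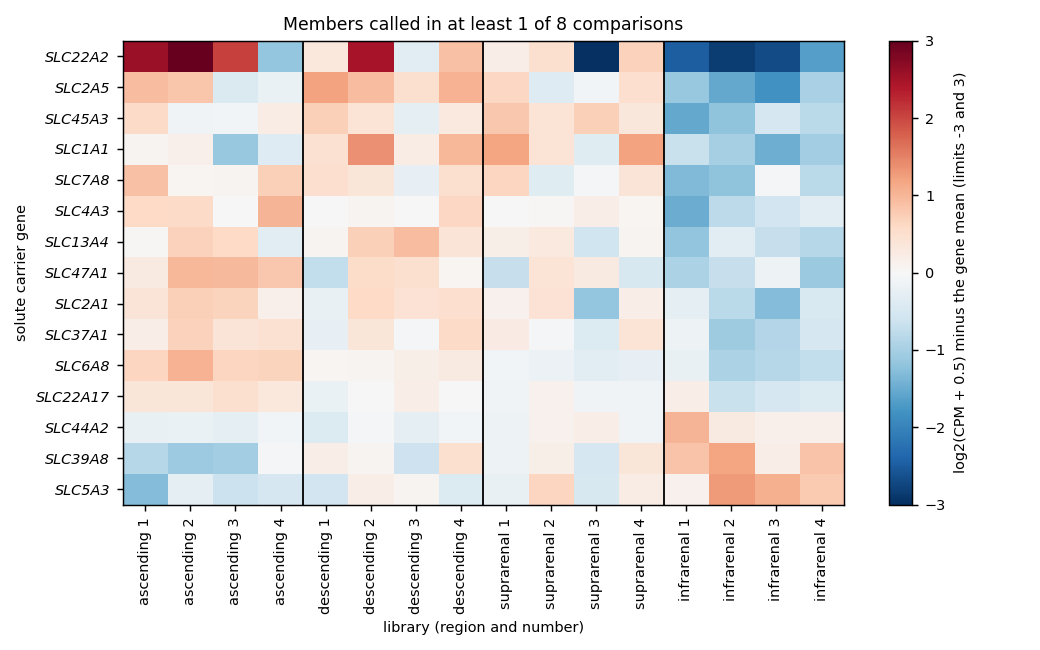
Heat map of the 15 members called in at least 1 of the 8 comparisons (rows) in the 16 libraries (columns, by region and number; black lines part the regions); colour is log2(CPM + 0.5) minus the mean of the gene, with colours limited at -3 and 3. SLC22A2 spans the widest range, and in the infrarenal columns SLC5A3, SLC39A8 and SLC44A2 are above their means while most other rows are below.

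Anion carriers were represented by SLC13A4, which imports sulfate with sodium, and by SLC4A3 (AE3), which exchanges chloride for bicarbonate. SLC13A4 had 49.1, 77.6, 72.4 and 37.6 CPM in the ascending libraries, 50.7, 78.9, 91.8 and 62.2 in the descending, 54.1, 59, 31.4 and 50.8 in the suprarenal, and 20.8, 37.7, 29.2 and 26.4 in the infrarenal libraries. The infrarenal libraries lay below every descending library and touched the other regions only at ascending 4 and suprarenal 3. The infrarenal region was lower than the rest (-1.05, SE 0.23, adjusted p = 0.0211), than the descending (-1.31, SE 0.27, adjusted p = 0.0209) and than the ascending region (-1.05, SE 0.27, adjusted p = 0.0422). The first call ended without infrarenal 1, 3 or 4 (0.0585 to 0.0705), and the second without descending 2 or 3 or infrarenal 1, 3 or 4 (0.0502 to 0.0799). The third ended in 10 of the 16 fits that leave out 1 library (0.0547 to 0.143). It held without ascending 4, descending 1 or 3, suprarenal 2 or 3, or infrarenal 2. It also ended with limma voom and with only the 8 libraries compared. SLC4A3 had 10.5, 10.2, 6.66 and 14.1 CPM in the ascending libraries, 6.60, 7.17, 6.61 and 10.5 in the descending, 6.80, 6.89, 7.81 and 7.03 in the suprarenal, and 2.08, 3.67, 4.33 and 5.32 in the infrarenal libraries. All 4 infrarenal libraries were below the other 12. The difference was -1.10 (SE 0.25, adjusted p = 0.0243) from the rest, a call that ended without infrarenal 2 (0.0906) or infrarenal 3 (0.0552), and -1.42 (SE 0.29, adjusted p = 0.0115) from the ascending region, which ended with only the 8 libraries compared (0.0988).

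Together with SLC2A5 and SLC45A3, SLC4A3 made 3 members whose infrarenal libraries lay below all other 12 (1.52%, beside 0.904% of all genes). Of the 3, SLC2A5 and SLC45A3 met the member rule through the other regions alone. In 0 members the infrarenal libraries lay above all others (beside 0.471% of all genes). The other named anion carriers were not called. Of these the sodium-bicarbonate cotransporter SLC4A7 had 12.8 to 60.1 CPM in the infrarenal libraries (difference from the rest 0.69, SE 0.33, adjusted p = 0.363), and the chloride-bicarbonate exchanger SLC4A2 stayed within 100 to 138 CPM in all 16 libraries (-0.09, SE 0.10, adjusted p = 0.77). SLC26A11, a sulfate and chloride carrier, had 24.9 to 39.4 CPM in the ascending and 13.8 to 22.3 in the infrarenal libraries (infrarenal minus ascending -0.77, SE 0.30, adjusted p = 0.241). Among the monocarboxylate carriers of the SLC16 family, SLC16A9 had 1.81 to 6.64 CPM in the ascending and 9.95 to 17.6 in the infrarenal libraries, which did not overlap (1.79, SE 0.50, adjusted p = 0.064), and SLC16A7 (MCT2), a carrier of pyruvate and lactate, was highest in the descending region with 15.6 ± 7.02 CPM (SD, n = 4; adjusted p of any difference 0.404).

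Of 24 carriers of zinc, iron, copper, manganese and heme, 1 was called: SLC39A8 (ZIP8), which brings zinc, manganese and cadmium into the cell. Its CPM was 10.02, 8.45, 8.78 and 17.7 in the ascending libraries, 21.3, 19.7, 12 and 26.2 in the descending, 16.6, 21.1, 12.9 and 23.9 in the suprarenal, and 33.8, 42.6, 21.2 and 33.8 in the infrarenal libraries. The infrarenal libraries were above every ascending library; infrarenal 3 alone reached into the ranges of the descending and suprarenal libraries. The difference from the rest was 1.03 (SE 0.23, adjusted p = 0.0211), which lost its call without infrarenal 2 (0.114) or infrarenal 4 (0.0606), and that from the ascending region 1.55 (SE 0.30, adjusted p = 0.00881), called in all 26 alternatives. The adjusted p of any difference was 0.0534. SLC40A1 (ferroportin), the iron exporter, had 213 ± 42.7 CPM in the descending and 133 ± 51.3 in the infrarenal libraries (SD, n = 4 each), with no call (infrarenal minus descending -0.68, SE 0.29, adjusted p = 0.319). SLC39A3 (ZIP3), another zinc importer, was at 81.6 CPM in infrarenal 1 and at 16 to 28.3 in the other 15 libraries. Its difference of 0.84 from the rest (SE 0.29, adjusted p = 0.174) was 0.07 (adjusted p = 0.903) without infrarenal 1.

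Infrarenal 1 also set the value of SLC44A2, a choline transporter-like protein and the only called member among 10 carriers of nucleosides, vitamins, choline and urea. SLC44A2 had 187, 192, 181 and 208 CPM in the ascending libraries, 166, 211, 180 and 209 in the descending, 196, 239, 251 and 205 in the suprarenal, and 446, 265, 242 and 244 in the infrarenal libraries. The difference from the rest was 0.57 (SE 0.15, adjusted p = 0.0483), and without infrarenal 1 it was 0.31 (adjusted p = 0.112). This call ended in 18 of 25 alternatives and, among the fits that leave out 1 library, held only without suprarenal 3, infrarenal 3 or infrarenal 4. The nucleoside transporter SLC29A1 (ENT1) had 49.98 to 89 CPM in the ascending and 95.7 to 144 in the descending libraries, which did not overlap and were not called (any difference, adjusted p = 0.585); its highest library was suprarenal 3 with 174. The folate and heme carrier SLC46A1 had region means falling from 7.95 ± 4.59 to 4.20 ± 1.56 CPM (SD, n = 4) from the ascending to the infrarenal region, with no call (adjusted p = 0.768).

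Fatty acid transport proteins of the SLC27 family, which couple uptake of long-chain fatty acids to their activation, were not called between regions. SLC27A6 (FATP6), known from heart muscle, was far higher in the libraries numbered 2 of every region than in the others. It was at 36.7, 80.6, 33.1 and 18.3 CPM in the libraries numbered 2, from the ascending to the infrarenal region, and at 0 to 2.79 CPM in the other 12, where infrarenal 1 held 0 counts (which allow up to 0.17 CPM). The counts were 595, 1338, 693 and 304 in the libraries numbered 2 and 0 to 46 elsewhere. Within each number the infrarenal library held the fewest counts, 0, 304, 5 and 6, where the descending library held 10, 1338, 46 and 23. The difference of the infrarenal region from the rest was -1.35 (SE 1.68, adjusted p = 0.806), and the adjusted p of any difference was 0.962, in a fit with no term for the number. The sign of each difference between 2 regions turned when the library numbered 2 of the higher region was left out, as in infrarenal minus ascending, -1.01 with all libraries and 2.99 without ascending 2. Of 10586 genes with at least 5 CPM in all 4 libraries numbered 2, 68 had these above the other 12, and 2 of them by at least 2-fold, the lowest numbered-2 library against the highest of the rest. These were SLC27A6 (6.56-fold) and LOC102118714 (6.58-fold, 305.6 to 346.9 CPM against at most 46.4). The labels do not say what libraries of one number share.

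Members in which the libraries of 1 number did not overlap the other 12 were few, at shares near those of all genes, and some of the gaps were narrow. SLC41A3, a carrier related to magnesium transporters, was at 55, 55.3, 54 and 51.4 CPM in the libraries numbered 2 and at 33.7 to 45.6 in the other 12. With SLC27A6 this made 2 members whose libraries numbered 2 lay above the other 12 (1.02%, beside 0.509% of all genes), and 0 lay below (beside 0.653%). In the libraries numbered 3, SLC9B2, a sodium-proton exchanger, was at 13.5, 12.7, 8.95 and 13.6 CPM against 20.4 to 34.6 in the rest. The mitochondrial S-adenosylmethionine carrier SLC25A26 was at 18.5, 14.8, 12.6 and 18.5 CPM there against 18.7 to 33.5. These were the 2 members lowest in the libraries numbered 3 (1.02%, beside 0.427% of all genes), and 0 were highest there (beside 0.452%). The libraries numbered 1 were lowest for 3 members (1.52%, beside 0.973%) and highest for 0 (beside 0.948%). The 3 were SLC12A2 (NKCC1), which carries sodium, potassium and chloride together, with 8.41 to 13 CPM against 14.7 to 22.9, the mitochondrial folate carrier SLC25A32 with 33.4 to 38 against 38.3 to 47.5, and the choline transporter SLC44A1 with 61.2 to 69.7 against 71.5 to 114. The thiamine transporter SLC19A2 was highest in the libraries numbered 4, with 13.9 to 15.9 CPM against 7.79 to 13 (1 member, 0.508%, beside 0.345%), and 0 members were lowest there (beside 0.414%). With no term for the number in the fit, 0 of these 8 members were called between regions.

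**Figure D4:**
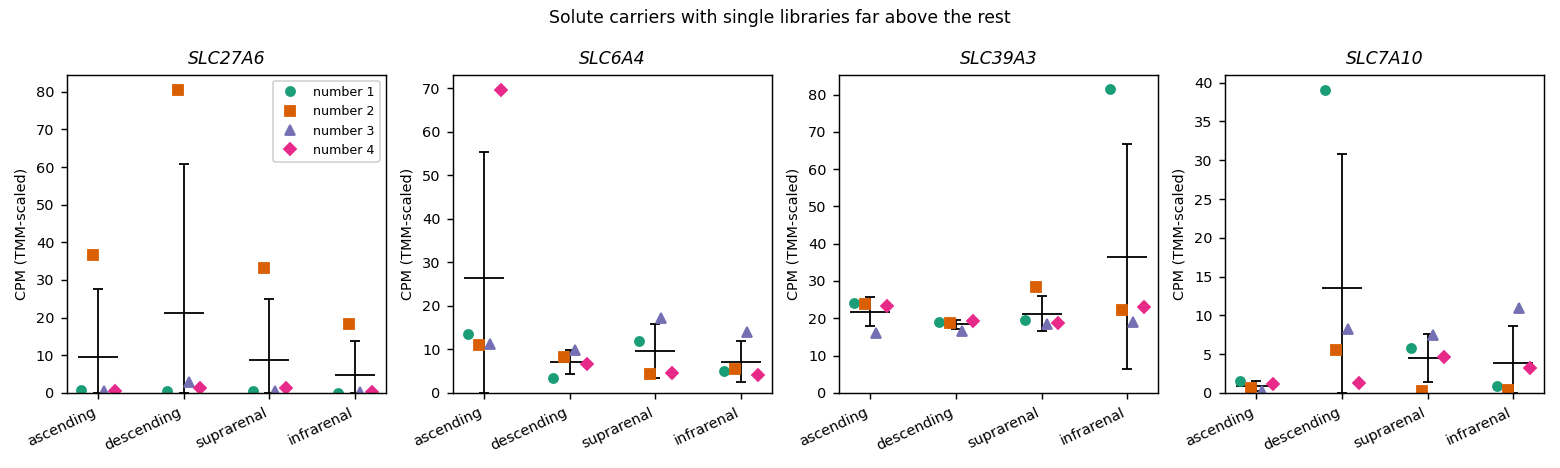
CPM (TMM-scaled, linear axis from 0) of 4 members that were not called between regions and in which 1 library of a region was far above the others; points, ticks and bars are as in the plot of the 6 called members. SLC27A6 is high in the library numbered 2 of each region, SLC6A4 in ascending 4 (69.7), SLC39A3 in infrarenal 1 (81.6) and SLC7A10 in descending 1 (39.1).

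Of the other SLC27 members, SLC27A3 was at 66 CPM in infrarenal 1 and at 26 to 37 in the other infrarenal libraries, all above the descending ones (16.6 to 22.6; difference 0.97, SE 0.30, adjusted p = 0.155). SLC27A5 was at 22.4 CPM in infrarenal 1 and at 4.45 to 9.54 in the other 15 libraries; its difference of 0.75 from the rest (adjusted p = 0.338) was -0.06 without infrarenal 1 (adjusted p = 0.952). SLC27A4 had 17 to 41.1 CPM, with its highest values in ascending 4 (41.1) and suprarenal 3 (39.8) and no call (adjusted p = 0.817).

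The 35 mitochondrial carriers had 0 members called in any of the 8 comparisons, and 22 of them had a positive infrarenal difference (class median 0.06). SLC25A6 and SLC25A5 exchange ADP for ATP across the inner membrane. SLC25A6 was at 1224 CPM in infrarenal 1 and at 478 to 691 in the other 15, and SLC25A5 had 38.8 to 63.9 CPM (differences from the rest 0.30, SE 0.19, adjusted p = 0.524, and 0.25, SE 0.11, adjusted p = 0.339). SLC25A34, an orphan carrier, had 27.2, 17.8, 19.7 and 10.7 CPM in the ascending and 14, 6.92, 5.63 and 4.19 in the infrarenal libraries; infrarenal 1 was the highest of its region. Its difference from the rest was -0.99 (SE 0.31, adjusted p = 0.121) and was called without infrarenal 1 (-1.45, adjusted p = 0.0127). SLC25A23, a calcium-regulated carrier of ATP-Mg and phosphate, was at 4.01 CPM in infrarenal 1 and at 11.6 to 34.9 elsewhere (-0.75, SE 0.33, adjusted p = 0.313).

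The 19 nucleotide sugar carriers likewise had 0 calls, with differences of -0.47 to 0.28 in the infrarenal region and a median of -0.03. SLC35D1, which brings UDP-glucuronic acid and UDP-N-acetylgalactosamine into the endoplasmic reticulum for proteoglycan synthesis, had the lowest of them (-0.47, SE 0.19, adjusted p = 0.263), with region means falling from 49.2 ± 11.4 to 32.5 ± 8.88 CPM (SD, n = 4). SLC35A5 had 57.6 to 72.8 CPM in the ascending and 47.4 to 64.7 in the infrarenal libraries (-0.32 from the rest, SE 0.12, adjusted p = 0.218). SLC35E4 and SLC35H1 had differences of -0.07 (SE 0.22) and 0.24 (SE 0.15), with no call.

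Among 5 phosphate and magnesium carriers, 14 carriers of sodium, potassium, calcium, chloride and protons, and 4 others, 0 were called in any comparison. The magnesium carrier SLC41A1 had region means of 77.1 ± 14.8, 74.9 ± 3.20, 60.6 ± 12.2 and 51.1 ± 7.51 CPM (SD, n = 4) from the ascending to the infrarenal region (difference from the rest -0.46, SE 0.15, adjusted p = 0.122), and was called without infrarenal 1, ascending 4 and suprarenal 3 (-0.46, adjusted p = 0.00479). SLC41A2 was lower in suprarenal 3 and infrarenal 1 (2.22 and 1.62 CPM) than in any other library (2.96 to 15.7). The phosphate importer SLC20A2 had means rising from 58.7 ± 4.70 to 77.1 ± 11.6 CPM (0.26 from the rest, SE 0.13, adjusted p = 0.389). The endosomal cation-proton exchanger SLC9A9 was highest in the descending region (24.7 ± 2.18 CPM against 15.2 ± 3.25 in the ascending, SD, n = 4; any difference, adjusted p = 0.33). The sodium-calcium exchanger SLC8A1 (NCX1) had 14.7 to 38.6 CPM in the ascending and 3.01 to 16.5 in the infrarenal libraries (-1.06 between them, SE 0.51, adjusted p = 0.407), and the potassium-chloride cotransporter SLC12A4 stayed at 192 to 301 CPM (-0.04 from the rest, SE 0.12). Of the rest, SLC67A1 was at 19.1 CPM in infrarenal 1 and at 4.59 to 5.60 in the other infrarenal libraries, with a difference from the rest of -0.23 (adjusted p = 0.824). Without infrarenal 1 it was called lower than the rest (-0.95, adjusted p = 0.0138), and without the 3 libraries named (-0.97, adjusted p = 0.00859). The lysosomal amino acid exporter SLC66A1 and the related SLC66A2 and SLC66A3 had differences of 0.15, 0.09 and 0.12.

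The comparisons of single pairs share libraries with one another and with the contrast above. Infrarenal versus ascending called 13 members (6.60%, beside 3.49% of all genes). SLC39A8 and SLC5A3 were higher (beside 1.43% of all genes called higher). The 11 lower members (beside 2.06% called lower) were SLC6A8, SLC2A5, SLC4A3, SLC22A2, SLC47A1, SLC45A3, SLC22A17, SLC7A8, SLC37A1, SLC13A4 and SLC2A1. The number was 32 (12 higher, 20 lower) without infrarenal 1, ascending 4 and suprarenal 3, where 13.2% of all genes were called. It was 5 with only the 8 libraries compared (beside 1.93% of all genes), 6 without infrarenal 2 or infrarenal 4 (beside 2.13% and 2.5%), and 8 without ascending 1, 2 or 3 or descending 2 (beside 2.15% to 3.08%). Infrarenal versus descending called 5 members (2.54%, beside 1.65% of all genes). All 5 were lower (beside 1.02% of all genes called lower, with 0.634% called higher): SLC2A5, SLC6A8, SLC1A1, SLC13A4 and SLC45A3. That number was 14 without the 3 libraries named (beside 4.1% of all genes), 11 with DESeq2 (beside 3.92%), and 2 or 3 without descending 2, 3 or 4 or infrarenal 2, 3 or 4 (beside 0.814% to 1.41%). Infrarenal versus suprarenal called 1 member, SLC45A3 (0.508%, beside 0.201% of all genes), with 16 members at an unadjusted p under 0.05 (8.12%, beside 5.76% of all genes). It called 5 members without the 3 libraries named (beside 1.51% of all genes).

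Suprarenal versus ascending called 1 member, SLC6A8, which was lower (0.508%, beside 0.257% of all genes called and 0.0879% called lower). At an unadjusted p under 0.05 there were 14 members (7.11%, beside 5.50%). Descending versus ascending called 0 members by the quasi-likelihood test, where 0.113% of all genes were called (0.0879% higher and 0.0251% lower). There were 19 members at an unadjusted p under 0.05 (9.64%, beside 6.74%), 0 called with limma voom (beside 0.0565% of all genes) and 3 with DESeq2 (SLC16A9, SLC6A8 and SLC7A10, beside 1.11%). SLC6A8 was also called without infrarenal 1. Suprarenal versus descending called 0 members and 0 genes, with 1 member at an unadjusted p under 0.05 (beside 1.66% of all genes) and 0 with DESeq2 or limma voom.

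Members whose libraries did not overlap between the descending and ascending regions were 16 higher (beside 5.42% of all genes) and 15 lower (beside 6.37%) in the descending region, which is 8.12% and 7.61% of the members. Among them were SLC16A9, SLC16A7, SLC29A1 and SLC9A9 on the higher side and SLC6A8, SLC22A17 and SLC4A2 on the lower. In the infrarenal libraries, 8 members lay above (beside 2.97% of all genes) and 15 below (beside 4.22%) every ascending library. Against the descending libraries these numbers were 5 (beside 4.55%) and 17 (beside 5.51%), and against the suprarenal libraries 0 (beside 0.867%) and 4 (beside 1.56%). In the suprarenal libraries, 2 members lay above (beside 1.74%) and 4 below (beside 2.08%) every ascending library, and 2 lay above (beside 0.854%) and 5 below (beside 0.942%) every descending library. The 45 scarcer solute carrier rows that were tested gave 2 calls, both in infrarenal versus ascending: the cystine-glutamate exchanger SLC7A11 (-2.30) and SLC35F1 (-1.29).

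Region means fell in order from the ascending through the descending and suprarenal to the infrarenal region in 20 members (10.2%, beside 6.71% of all genes) and rose in that order in 10 (5.08%, beside 6.45%). The falling members included SLC6A8, SLC22A2, SLC4A3, SLC47A1, SLC7A8, SLC22A17, SLC2A1 and SLC37A1, and the rising ones SLC5A3 and SLC20A2. Suprarenal versus descending called 0 genes of all those tested, so no falling or rising member could have all 3 steps between neighbouring regions called.

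Transport genes outside the solute carrier symbols were taken from lists of related function. Of 54 tested pumps, channels for water and other transporters, 4 were lower in the infrarenal region and 0 higher, with a median of -0.05; of all genes, 1.61% were called lower and 1.37% higher. ATP1B1, the beta subunit of the sodium-potassium pump on whose gradient many solute carriers depend, had 117, 120, 121 and 65.8 CPM in the ascending libraries, 63 to 65.9 in the descending, 27.1 to 55.2 in the suprarenal, and 9.02, 12.2, 20.4 and 15.5 in the infrarenal libraries. All infrarenal libraries were below the other 12, and the difference from the rest was -2.16 (SE 0.25, adjusted p = 0.000244). The water channel AQP1 (-1.03, adjusted p = 0.0151), the lipid transporter ABCA2 (-0.52, adjusted p = 0.0291) and ANKH, which exports citrate and pyrophosphate precursors (-0.75, adjusted p = 0.0491), were the other 3. Of 22 genes of fatty acid uptake and activation, 2 were higher: the cytosolic fatty acid-binding protein FABP3 (2.36, SE 0.38, adjusted p = 0.00253; 12.6 to 35.6 CPM in the infrarenal libraries against 1.41 to 10.3 in the others) and the acyl-CoA synthetase ACSL6 (1.57, SE 0.35, adjusted p = 0.0221). Lipoprotein lipase, LPL, ran from 11.5 to 1119 CPM with no call (adjusted p = 0.545) and was highest in descending 1, suprarenal 3 and infrarenal 3 of their regions, the libraries with the highest white adipocyte sums. Of 13 tested genes of monoamine and polyamine handling, 1 was higher, the amine oxidase AOC3 (0.72, SE 0.17, adjusted p = 0.0276; 229 to 463 CPM in the infrarenal against 150 to 175 in the ascending libraries), while MAOA (0.60, SE 0.20, adjusted p = 0.14) was not called. Of 14 partners of carrier proteins, 0 were called. The scaffold PDZK1 had -1.03 (adjusted p = 0.123), RNF128 -4.68 (adjusted p = 0.0666) and NHERF2 0.91 (adjusted p = 0.273).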

How the data were processed

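The authors deposited a table of whole-number read counts per gene for the 16 libraries; per the submitters' processing notes, reads were trimmed with fastp, aligned with HISAT2 2.0.5 and counted with featureCounts 1.5.0-p3. Genome build, annotation and strand setting are each not given in the sources used here, so reads of a gene and of an antisense neighbour cannot be told apart. Of the rows, 32822 were GeneIDs and 24 named mitochondrial RNAs; 24609 rows (74.9%) matched a symbol in the RefSeq gene table of assembly T2T-MFA8v1.1, which was used for names and for which genes overlap.

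Genes passing filterByExpr (minimum count 10, minimum total 15) were fitted in edgeR 4.0.16 (R 4.3.3) with TMM factors, a mean for each region over all 16 libraries and quasi-likelihood F tests; p-values were adjusted by the Benjamini-Hochberg method over 15926 genes. The SE is the size of the difference over the square root of F. The common dispersion was 0.146. No pair of libraries of the same region agreed within sampling noise (lowest chi-square per degree of freedom 29.47). On simulated counts for these genes, the contrast of the infrarenal region with the rest recovered 48% of the 98 genes given a 2-fold change and 78% of the 100 given a 4-fold change (4 of its 129 calls were false). The simulated libraries were drawn independently, with no outlying library and no likeness among libraries of a number. These shares may therefore not hold for the real counts.

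Alternatives were other scalings, filters and membership, DESeq2 1.42.0, limma 3.58.1 voom, the library number as a block, only the 8 libraries of a pair, and leaving out each library; 2 more were chosen after the data were seen. The members and lists were chosen with earlier results of these data known. The genes named were SLC22A2 and SLC27A6, up to 12 members with the smallest p for any difference, up to 8 called members in each direction for the infrarenal region, up to 3 in each direction for each pair, and up to 3 with the smallest p plus the member with the highest mean for each class. SLC37A1, the genes at the limit of the member rule, the scarcer called genes and those that followed the library number were named after their values were seen. The results of 2 named genes are not reported here.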

Additional observations from a re-analysis of the deposited data

Results flagged for a closer look

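In 25 of 248 groups of 4 libraries, over the genes named by rule, the highest or lowest library stood apart from the nearest other by more of the group's range than Dixon's limit for 4 values; chance gives about 1 such group in 20. SLC27A6 stood apart in every region through the library numbered 2, at 36.7 CPM in the ascending, 80.6 in the descending, 33.1 in the suprarenal and 18.3 in the infrarenal region. Infrarenal 1 stood apart from the other infrarenal libraries in 6 members. It was highest for SLC44A2 (446 CPM, others 242 to 265), SLC27A5 (22.4, others 4.51 to 6.49), SLC25A6 (1224, others 523 to 612), SLC67A1 (19.1, others 4.59 to 5.60) and SLC39A3 (81.6, others 19.1 to 23), and lowest for SLC38A2 (78.2, others 140 to 150).

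Ascending 4 was highest for SLC6A4 (69.7 CPM, others 11 to 13.6) and SLC39A8 (17.7, others 8.45 to 10.02) and lowest for the pump subunit ATP1B1 (65.8, others 117 to 121). Suprarenal 3 was highest for SLC27A5 (8.57, others 4.45 to 4.96) and for the scaffold NHERF2 (239, others 64.8 to 89.97), and lowest for SLC35D1 (28.2, others 41.7 to 44.1). Infrarenal 3 was highest for SLC6A4 (14.1, others 4.13 to 5.54) and LPL (1096, others 11.5 to 141).

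Of the rest, ascending 2 was highest for the creatine transporter SLC6A8 (212, others 161 to 164) and lowest for SLC20A2 (51.7, others 60.2 to 61.6). Suprarenal 2 was highest for SLC22A17 (326, others 276 to 277) and SLC39A3 (28.3, others 18.3 to 19.4). Descending 4 was highest for SLC4A3 (10.5, others 6.60 to 7.17), infrarenal 4 for SLC16A9 (17.6, others 9.95 to 10.6), and ascending 3 was lowest for SLC39A3 (16, others 23.2 to 24).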

How the results depend on the processing

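All counts here are of called members, and the cause of a change was not tested. Leaving out 1 library at a time gave 2 to 9 for any difference (6 with all libraries), 4 to 14 for the infrarenal region against the rest (11), 0 to 1 for infrarenal versus suprarenal (1), 2 to 7 versus descending (5), 6 to 16 versus ascending (13), 0 to 1 for suprarenal versus ascending (1) and for descending versus ascending (0), and 0 for suprarenal versus descending (0). Over the same fits, 1.31% to 2.94% of all genes were called for any difference and 1.65% to 3.53% for the infrarenal region against the rest. For infrarenal versus descending the share was 0.814% to 2.02%, and versus ascending 2.13% to 6.18%. DESeq2 gave 14 for any difference, 3 for infrarenal versus suprarenal, 11 versus descending and 3 for descending versus ascending. It called 5.18%, 1.05%, 3.92% and 1.11% of all genes in these comparisons. With limma voom the counts were 3 for any difference and 0 for infrarenal versus suprarenal (beside 1.64% and 0.0942% of all genes). Library totals alone gave 2 for infrarenal versus suprarenal (beside 0.327% of all genes) and the membership by mean CPM gave 0. With only the 8 libraries compared that count was 0 (beside 0% of all genes), and infrarenal versus ascending gave 5 (beside 1.93%).

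The library number as a replicate block gave 11 for any difference, 3 for infrarenal versus suprarenal and 9 versus descending (beside 3.34%, 0.527% and 2.71% of all genes). Calls that it added include SLC1A1 and SLC2A5 versus suprarenal, SLC16A9 versus ascending, SLC39A8 for any difference, and SLC27A6 versus descending. Of 24 pairs of libraries with the same number, 19 had deviations from their region means correlated above 0.1 (lowest -0.173, median 0.344). The other 72 pairs had a median of -0.0947. For 15 of 16 libraries the mean correlation was highest with the libraries of their own number, a hint from the data and not from the design. The highest correlation of a single pair, 0.606, was that of ascending 4 and suprarenal 3, which differ in number. With 3 doubted libraries (infrarenal 1, ascending 4 and suprarenal 3) left out, chosen after the data were seen, the counts were 17 for any difference, 19 for infrarenal against the rest, 5 versus suprarenal, 14 versus descending, 32 versus ascending and 1 for descending versus ascending. The shares of all genes called were 7.08%, 10.1%, 1.51%, 4.1%, 13.2% and 0.885%, in the same order. The replicate block without infrarenal 1, also chosen after the data were seen, gave 14 for any difference, 17 for infrarenal against the rest, 11 versus descending, 26 versus ascending, 3 for suprarenal versus ascending and 2 for descending versus ascending. Of all genes it called 4.84%, 4.78%, 2.66%, 8.9%, 1.11% and 0.969%, in the same order. Calls that it ended include those of SLC22A2 for any difference and against the rest. It also ended those of SLC7A8 against the rest and versus ascending.

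The sign of SLC27A5 against the rest turned without infrarenal 1 (-0.06), and that of SLC27A6 turned in several fits. Its difference of suprarenal from ascending (-0.12) was 0.059 with the replicate block, 0.062 with the block and without infrarenal 1, and 0.29 with limma voom. Leaving out 1 library at a time gave -3.75 to 3.87 for this difference, -5.32 to 2.99 for infrarenal versus ascending, -6.47 to 1.61 versus descending, -5.21 to 2.73 versus suprarenal, -4.89 to 2.502 for suprarenal versus descending and -2.62 to 5.13 for descending versus ascending. With 4 libraries a region, changes near 2-fold were often missed in simulation, so a member that was not called is not shown to be equal across regions.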
